A study of Saccharomyces cerevisiae with 18 samples.

Results

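*snf5Δ* cells were compared with *snf2Δ* cells, both grown in YPD, across all genes. Members were the 3 libraries of *snf5Δ* in YPD and the 3 of *snf2Δ* in YPD, 6 of the 18 libraries of the series, and 5757 of 7127 gene identifiers passed the low-count filter and were tested. Both mutants are haploid *MATa* strains of *Saccharomyces cerevisiae* in the BY4741 background, which also carries *his3Δ1 leu2Δ0 met17Δ0 ura3Δ0*. They come from the yeast deletion collection, and in each a *KanMX4* cassette replaces one gene, giving *snf5Δ::KanMX4* and *snf2Δ::KanMX4*. The wild type (wt) is BY4741 itself and appears here only for orientation, with 3 libraries in YPD. The same mutants also had 3 libraries each from cultures given 3 mM cysteine for 30 min (YPD + Cys), and these served for a comparison in a second medium. YPD is a rich medium with glucose. Ribosomal RNA was removed before paired-end sequencing. The labels do not say whether replicates were separate cultures, so p-values measure only the spread between these libraries, which may be technical. RNA came from whole cultures, in which fewer cells with a transcript and less of it per cell cannot be told apart.

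Swi-Snf is a chromatin remodeling complex that slides or evicts nucleosomes with energy from ATP. Snf2 is its ATPase, and Snf5 is a core subunit that contacts the nucleosome. The complex was found through mutants that fail to switch mating type or to ferment sucrose, and it is known for roles at promoters of inducible genes. Setting one mutant against the other asks which transcripts differ between cells without the motor and cells without another subunit of the same complex. The labels name no further strain of either deletion. Other differences between the strains cannot be told apart from effects of the missing subunit.

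The labels held at the deleted genes. *SNF5* had 0, 1 and 0 counts in *snf5Δ*, against 235, 120 and 114 in *snf2Δ*. *SNF2* had 200.3, 185 and 169 CPM in *snf5Δ*, against 3.26, 5.22 and 1.23 CPM in *snf2Δ* (CPM, the count of a gene scaled to one common library total after TMM normalisation). The *a*-specific receptor gene *STE2* was present in every library, and the alpha factor genes *MF(ALPHA)1* and *MF(ALPHA)2* had at most 3 counts in any library. *LEU2*, *URA3* and *MET17* had 0 counts throughout. *HIS3*, for which the strain carries *his3Δ1*, did have counts, 44 to 98 in *snf5Δ*, 58 to 107 in *snf2Δ* and 53 to 77 in wt, all in YPD. Counts in genes ran from 1329986 to 3779500 per *snf5Δ* library and from 2101434 to 4312873 per *snf2Δ* library. In *snf5Δ* replicate 3 and in *snf2Δ* replicates 2 and 3, 71.4%, 53.5% and 44.6% of reads aligned to more than 1 place, while no other YPD library passed 28.6%. Values without these 3 libraries, which leave 2 *snf5Δ* libraries and 1 *snf2Δ* library that is assumed to vary like the rest, stand beside each group of results and are called the reduced fit. Below, a library left out alone is named by its strain and replicate number, as in *snf5Δ* 2, with the adjusted p without it.

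Upstream sequence is shown first for genes described below whose upstream control is well known. Windows of 300 bases, from 400 to 101 bases before the start codon, were read from the R64 (sacCer3) genome with the RefSeq annotation. Upstream of *SER3*, which encodes 3-phosphoglycerate dehydrogenase at the start of serine synthesis, the window lies wholly within *SRG1* (chrV:322212-322762, same strand), a noncoding transcript whose passage over the *SER3* promoter is known to keep *SER3* low in rich medium. The window is printed in lower case, on the + strand at chrV:322286-322585.
SER3: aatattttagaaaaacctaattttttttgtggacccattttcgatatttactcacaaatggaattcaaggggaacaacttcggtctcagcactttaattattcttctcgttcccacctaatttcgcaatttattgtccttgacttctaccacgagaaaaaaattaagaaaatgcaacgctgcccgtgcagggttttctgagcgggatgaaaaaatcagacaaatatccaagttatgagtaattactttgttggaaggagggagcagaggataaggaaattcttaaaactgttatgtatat
For 3 genes of high-affinity iron uptake, capitals mark TGCACCC, the core bound by the iron regulator Aft1, read on either strand. Their sites lie at chrXV:1061314-1061360 and chrXV:1061213-1061259 (- strand) for *FIT3*, at chrXIII:388551-388597 (+ strand) for *FET3*, and at chrV:462079-462125 and chrV:461889-461935 (- strand) for *FTR1*.
FIT3 site 1: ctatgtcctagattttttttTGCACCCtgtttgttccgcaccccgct
FIT3 site 2: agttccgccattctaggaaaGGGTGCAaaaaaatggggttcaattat
FET3 site 1: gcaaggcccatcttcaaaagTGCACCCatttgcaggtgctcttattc
FTR1 site 1: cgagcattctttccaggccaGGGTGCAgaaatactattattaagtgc
FTR1 site 2: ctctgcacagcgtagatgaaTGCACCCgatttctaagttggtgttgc
For the sulfur gene *MET16* (chrXVI:877766-877825, - strand), capitals mark CACGTG, the E-box bound by Cbf1, and GCCACA, the reverse complement of the Met31 and Met32 core TGTGGC. For *FUS1* (chrIII:71601-71665, + strand) they mark TGAAACA, the pheromone response element bound by Ste12.
MET16: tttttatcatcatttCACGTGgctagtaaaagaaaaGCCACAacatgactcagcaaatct
FUS1: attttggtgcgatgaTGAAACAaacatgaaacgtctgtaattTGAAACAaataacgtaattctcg
Of 5988 such windows of nuclear protein-coding genes, searched on both strands, 1.45% held TGCACCC, 4.56% CACGTG, 9.12% TGTGGC and 7.65% TGAAACA. No match printed here overlaps a match of another motif. TGCACCC stood in 13 of 20 windows of the iron uptake list, CACGTG in 9 and TGTGGC in 6 of 10 windows of sulfate assimilation, and TGAAACA in 8 of 10 windows of mating genes searched. These mating genes were the 7 *a*-specific genes with *FUS1*, *PRM2* and *PRM9*, each of the latter called lower here. Their share is thus not independent of the calls, and other pheromone pathway genes were not in the set. The *SUL1* window held neither sulfur motif. A match is a description of letters and not of binding.

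Few genes were called between the mutants in the fit used here. At an adjusted p under 0.05 (edgeR's quasi-likelihood test with Benjamini-Hochberg adjustment over all genes tested), 172 genes were called, 2.99% of those tested. Of these, 97 were higher in *snf5Δ* (1.68%) and 75 lower (1.30%). Counts of called members of the lists below are to be read beside these shares of all genes, and no list was tested as a set. The median size of a called change was 1.01 on the log2 scale, 87 called genes changed at least 2-fold, and 17 changed more than 4-fold, *SNF2* and *SNF5* among them. Of these 17, *PRM2*, *PRM9*, *HFM1*, *YIL163C* and the Ty2 element *YDR210W-B* (lower), and *VBA5* and *YER053C-A* (higher), averaged under 10 CPM in both mutants and are not followed further, apart from *PRM2*. In 171 called genes the 3 *snf5Δ* libraries and the 3 *snf2Δ* libraries did not overlap, and in *MOH1* they did. Calls rest on the same values, so a lack of overlap describes a called gene and adds no support to its call. The share of all genes tested without overlap is not given here. For scale, 1554 genes were called between *snf5Δ* and wt (27.0%) and 1136 between *snf2Δ* and wt (19.7%). Both of those comparisons use the same wt libraries. Scaling by library totals in place of TMM moved the median over all genes tested (log2 scale) from -0.004 to 0.10 and the share of called genes that were higher from 56.4% to 69.2%. The number of calls rested on the libraries: it lay between 64 (without *snf2Δ* replicate 1) and 213 (without *snf2Δ* replicate 3) with 1 library left out, and was 92 without *snf5Δ* replicate 1, 75 without *snf5Δ* replicate 2 and 71 without *snf2Δ* replicate 2. In the reduced fit 21 genes were called, 20 of them among the 172, and all 172 kept their direction.

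**Figure D1:**
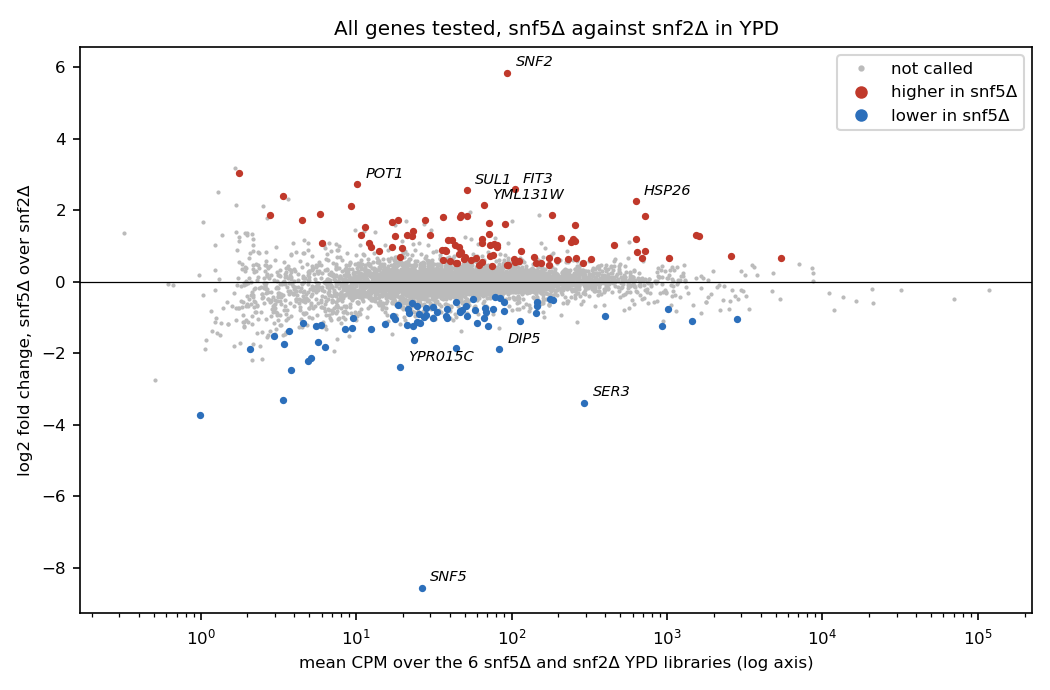
Log2 fold change (*snf5Δ* over *snf2Δ*, vertical axis) of each of the 5757 genes tested, against its mean level in CPM over the 6 libraries (horizontal log axis). Red points are the 97 genes higher and blue points the 75 genes lower in *snf5Δ*, and grey points were not called; apart from the deleted genes, *SER3* has the most negative change among genes with over 10 CPM in a mutant.

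*SER3* was the most strongly lowered gene among those with at least 10 CPM in a mutant. It had 40.7, 58.1 and 56.8 CPM in *snf5Δ*, against 545, 565 and 501 CPM in *snf2Δ*. All *snf5Δ* libraries lay far below all *snf2Δ* libraries. The log2 fold change was -3.38 ± 0.18 (SE, adjusted p = 3.32e-09), and *SER3* was 10.4-fold higher in *snf2Δ*. In wt it had 34.9, 49.5 and 53.2 CPM, and the log2 fold change over wt was 0.17 ± 0.18 in *snf5Δ* (adjusted p = 0.522) and 3.55 ± 0.18 in *snf2Δ* (adjusted p = 1.3e-09). *SRG1*, whose transcript covers the printed window, had 58.8, 44.8 and 50.4 CPM in *snf5Δ*, against 61.2, 49.8 and 36.5 CPM in *snf2Δ*. These values overlapped, with a log2 fold change of 0.05 ± 0.21 (adjusted p = 0.953). Both mutants had less *SRG1* than wt, which had 68.4, 94.2 and 84.3 CPM (adjusted p = 0.02 for *snf5Δ* and 0.0177 for *snf2Δ*). *SRG1* overlaps the start of *SER3*, and the sources used here do not say how the counting treated strand or shared reads of this pair. *SER33*, which encodes the other 3-phosphoglycerate dehydrogenase, had a log2 fold change of 0.27 ± 0.15 (adjusted p = 0.439), and *SER1* and *SER2*, the later steps, 0.07 ± 0.17 and 0.16 ± 0.20 (adjusted p = 0.91 and 0.799). Of 12 genes of serine and one-carbon metabolism, *SER3* was the single one called. The *SER3* call held in each fit that left out 1 library, and the reduced fit gave -3.45 for *SER3* (adjusted p = 4.35e-06).

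*YPR015C*, a predicted zinc finger protein, was next among the lower genes, with 7.55, 5.33 and 5.11 CPM in *snf5Δ*, against 36.3, 34.6 and 25.4 CPM in *snf2Δ*. The groups did not overlap, at a log2 fold change of -2.39 ± 0.28 (adjusted p = 0.000105). Its *snf5Δ* libraries overlapped those of wt, which had 3.58, 7.40 and 4.44 CPM. With RSEM's expected counts its change was -1.71 (adjusted p = 0.00789). *DIP5*, the permease of glutamate and aspartate, had 39.6, 28.3 and 41.5 CPM in *snf5Δ*, against 202, 135 and 55.4 CPM in *snf2Δ*. Its *snf2Δ* values spread widely, with replicate 3 closest to *snf5Δ*, and its change was -1.87 ± 0.36 (adjusted p = 0.00843). *IMD2*, which encodes IMP dehydrogenase for GTP synthesis, had 15.9, 21.1 and 21.1 CPM in *snf5Δ*, against 79.2, 85.9 and 41.9 CPM in *snf2Δ*, a change of -1.85 ± 0.30 (adjusted p = 0.00266). It has near-identical copies in the genome, and with RSEM's expected counts, which share out such reads, its change was -1.90. *ARG1*, argininosuccinate synthase, had 35.9, 42.6 and 47.9 CPM in *snf5Δ*, against 76.6, 127 and 94.0 CPM in *snf2Δ*, and *KTD1*, which protects against a killer toxin and has close relatives in its family, 15.1, 15.5 and 10.2 CPM in *snf5Δ*, against 40, 31.3 and 27.5 CPM in *snf2Δ*. Their changes were -1.24 ± 0.32 and -1.24 ± 0.21 (adjusted p = 0.0426 and 0.00362). *GEX2*, a glutathione exchanger, changed by -1.29 ± 0.30, and *PRY3*, a cell wall protein of the CAP family, by -1.15 ± 0.28 (adjusted p = 0.0264 and 0.0333). Of 15 purine synthesis genes *IMD2* was the 1 called. *IRC10* had 5.12, 6.54 and 1.92 CPM in *snf5Δ*, against 15.8, 11.9 and 9.44 CPM in *snf2Δ* and a change of -1.33 ± 0.31 (adjusted p = 0.026). Calls of *YPR015C*, *IMD2* and *KTD1* held with any 1 library left out. The others were lost, *DIP5* without *snf5Δ* 2 or *snf2Δ* 1 (adjusted p = 0.0674 to 0.069), *ARG1* without any of the 6 libraries (adjusted p = 0.0554 to 0.202), *GEX2* without *snf5Δ* 2, *snf5Δ* 3, *snf2Δ* 1 or *snf2Δ* 2 (adjusted p = 0.0738 to 0.161), *PRY3* without *snf5Δ* 2, *snf5Δ* 3, *snf2Δ* 1 or *snf2Δ* 2 (adjusted p = 0.0647 to 0.212) and *IRC10* without *snf5Δ* 1, *snf5Δ* 3, *snf2Δ* 1 or *snf2Δ* 2 (adjusted p = 0.0614 to 0.185). Without the 3 libraries, the reduced fit gave -2.49 for *YPR015C* (adjusted p = 0.00706), -2.56 for *DIP5* (adjusted p = 0.00281), -2.08 for *IMD2* (adjusted p = 0.0225), -0.95 for *ARG1* (adjusted p = 0.523), -1.38 for *KTD1* (adjusted p = 0.0363), -1.33 for *GEX2* (adjusted p = 0.215), -1.41 for *PRY3* (adjusted p = 0.118) and -1.42 for *IRC10* (adjusted p = 0.104).

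Iron uptake genes included some of the strongest increases. Yeast takes up iron with the ferroxidase Fet3 and its partner permease Ftr1, and with mannoproteins such as Fit3 that hold siderophores in the cell wall, all driven by Aft1. *FIT3* had 229, 135 and 176 CPM in *snf5Δ*, against 38.6, 22.3 and 26.3 CPM in *snf2Δ*. Every *snf5Δ* library lay above every *snf2Δ* library, with a log2 fold change of 2.60 ± 0.24 (adjusted p = 6.4e-06). *FET3* had 1431, 919 and 1050.5 CPM in *snf5Δ*, against 411, 267 and 275 CPM in *snf2Δ*, a change of 1.83 ± 0.33 (adjusted p = 0.00472), and *FTR1* had 332, 235 and 314 CPM in *snf5Δ*, against 131, 96.3 and 147 CPM in *snf2Δ*, a change of 1.23 ± 0.19 (adjusted p = 0.00212). These are the 3 genes whose Aft1 core sites are printed above. The same core stood in windows of iron uptake genes that were not called, with changes from -0.41 (*ENB1*) to 1.09 (*FIT2*). Relative to wt, *FIT3* stood at 0.26 ± 0.22 in *snf5Δ* and -2.34 ± 0.24 in *snf2Δ*, *FET3* at -0.42 ± 0.32 and -2.25 ± 0.33, and *FTR1* at 0.37 ± 0.19 and -0.86 ± 0.19, in that order of mutants. Of 20 iron uptake genes tested, 3 were higher, 0 lower and 17 not called, with a median log2 fold change of 0.42, against -0.004 over all genes. Among all genes tested 1.68% were higher. The siderophore genes *FIT2* and *SIT1* had changes of 1.09 ± 0.32 and 1.04 ± 0.31 and did not pass (adjusted p = 0.0798 and 0.0872). The transcription factor genes *AFT1* and *AFT2* had 0.40 ± 0.17 and -0.02 ± 0.15 (adjusted p = 0.269 and 0.976). Of 6 copper uptake genes 0 were called. All 3 iron calls held with any 1 library left out. In the reduced fit the changes were 2.25 for *FIT3* (adjusted p = 0.0133), 1.53 for *FET3* (adjusted p = 0.285) and 1.13 for *FTR1* (adjusted p = 0.113), and a list median of 0.29.

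Sulfate is taken up by Sul1 and Sul2 and reduced by the *MET* enzymes, which the activator Met4 controls through DNA-bound partners. Over wt the median log2 fold change of 10 sulfate assimilation genes was 2.50 in *snf5Δ* and 1.85 in *snf2Δ*, and 2 of them were called between the mutants. *SUL1*, a high-affinity sulfate permease, had 54.2, 84.8 and 126 CPM in *snf5Δ*, against 12.3, 12.8 and 18.9 CPM in *snf2Δ*. The lowest *snf5Δ* library was well above the highest *snf2Δ* library, and the change was 2.58 ± 0.42 (adjusted p = 0.00257). In wt it had 2.61, 2.85 and 3.33 CPM, less than in either mutant. *SUL2*, the other sulfate permease, averaged 328 CPM in *snf5Δ*, against 232 CPM in *snf2Δ*, a change of 0.49 ± 0.25 (adjusted p = 0.387). *MET16*, which reduces PAPS to sulfite, had 38.8, 44.8 and 62.6 CPM in *snf5Δ*, against 22.1, 25.6 and 30.4 CPM in *snf2Δ*. Its groups did not overlap, at 0.89 ± 0.22 (adjusted p = 0.0352). Of 10 genes of sulfate assimilation 2 were higher, 0 lower and 8 not called, 9 had a positive change, and the median was 0.55. *MET3*, *MET5*, *MET10* and *MET14*, the enzymes around *MET16*, lay between 0.54 and 0.64 (adjusted p from 0.113 to 0.249). Of 6 transporters of organic sulfur compounds, the cysteine transporter gene *YCT1* was higher, with 46.9, 54.3 and 45.3 CPM in *snf5Δ*, against 25.1, 27.0 and 28.3 CPM in *snf2Δ*, a change of 0.88 ± 0.16 (adjusted p = 0.00448). Of 11 genes of homocysteine and methionine synthesis, *HOM6*, homoserine dehydrogenase, was higher at 0.54 ± 0.11 (adjusted p = 0.0138), with a list median of 0.16. Of 8 genes of S-adenosylmethionine, cysteine and glutathione synthesis and 6 regulators around Met4, 0 were called. Calls of *SUL1* and *YCT1* held with any 1 library left out, that of *MET16* was lost without *snf5Δ* 2, *snf5Δ* 3, *snf2Δ* 1 or *snf2Δ* 2 (adjusted p = 0.0975 to 0.185) and that of *HOM6* without *snf5Δ* 2, *snf2Δ* 1 or *snf2Δ* 2 (adjusted p = 0.0546 to 0.0701). In the reduced fit the values were 2.50 for *SUL1* (adjusted p = 0.113), 0.93 for *MET16* (adjusted p = 0.258), 1.02 for *YCT1* (adjusted p = 0.113) and 0.51 for *HOM6* (adjusted p = 0.316).

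Heat shock genes encode chaperones that bind or refold proteins under stress. Of 35 heat shock and stress genes, 8 were higher, 0 lower and 27 not called, 30 had a positive change, and the median log2 fold change was 0.56. Among all genes tested 1.68% were higher. *HSP26*, a small heat shock protein, had 868, 1336 and 912 CPM in *snf5Δ*, against 144, 108 and 401 CPM in *snf2Δ*. The groups did not overlap, although *snf2Δ* replicate 3 was well above the other *snf2Δ* libraries, and the change was 2.26 ± 0.56 (adjusted p = 0.0376). Both mutants were far above wt, which had 15.3, 21.6 and 9.98 CPM. *SSA3*, a stress-induced Hsp70, had 109.7, 188 and 109.8 CPM in *snf5Δ*, against 36.8, 43.2 and 53.4 CPM in *snf2Δ*, at 1.63 ± 0.25 (adjusted p = 0.00185). *HSP82*, the inducible Hsp90, had 331, 438 and 261 CPM in *snf5Δ*, against 146, 160.4 and 147 CPM in *snf2Δ*, at 1.19 ± 0.22 (adjusted p = 0.00717). Both showed groups that did not overlap. *SSA4* and *SSA1*, further Hsp70 genes, changed by 1.09 ± 0.22 and 0.85 ± 0.21 (adjusted p = 0.013 and 0.0335), *SSE2*, a nucleotide exchange factor, by 0.88 ± 0.22 (adjusted p = 0.043), *HSP60* of the mitochondrial matrix by 0.65 ± 0.16 (adjusted p = 0.0332), and *HSP31* by 0.69 ± 0.17 (adjusted p = 0.0332). The catalase gene *CTT1* (1.88 ± 0.51), *GRE1* (1.96 ± 0.55) and *HSP12* (1.10 ± 0.48) did not pass (adjusted p = 0.0588, 0.0679 and 0.278). The summed level of the list was 9877 to 13242 CPM in *snf5Δ*, 6864 to 8195 CPM in *snf2Δ* and 8561 to 10478 CPM in wt. With 1 library left out the list had 1 to 7 higher genes, 1 of them without *snf5Δ* replicate 2. *SSA3* kept its call in each such fit, while *HSP26* lost it without *snf5Δ* 1, *snf5Δ* 2, *snf5Δ* 3, *snf2Δ* 1 or *snf2Δ* 2 (adjusted p = 0.0593 to 0.183), *HSP82* without *snf5Δ* 2 (adjusted p = 0.0516), *SSA4* without *snf5Δ* 2, *snf2Δ* 1 or *snf2Δ* 2 (adjusted p = 0.054 to 0.0944), *SSA1* without *snf5Δ* 1, *snf5Δ* 2, *snf2Δ* 1 or *snf2Δ* 2 (adjusted p = 0.0798 to 0.203), *SSE2* without *snf5Δ* 1, *snf5Δ* 2, *snf2Δ* 1, *snf2Δ* 2 or *snf2Δ* 3 (adjusted p = 0.0689 to 0.24), *HSP31* without *snf5Δ* 2, *snf5Δ* 3, *snf2Δ* 1, *snf2Δ* 2 or *snf2Δ* 3 (adjusted p = 0.0745 to 0.187) and *HSP60* without any of the 6 libraries (adjusted p = 0.0501 to 0.147). In the reduced fit *SSA3* was the 1 gene of the list called (2.03, adjusted p = 0.0387), *HSP26* had 2.94 (adjusted p = 0.19), and the list median was 0.69. Members of the *SSA* family are alike in sequence, and reads from one can be counted in another or left out.

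Glycolysis splits glucose to pyruvate, and the pentose phosphate route yields NADPH. Of 19 genes of glycolysis and fermentation, 3 were higher, 0 lower and 16 not called, 18 had a positive change, and the median was 0.39. Among all genes tested 1.68% were higher. *TDH1*, a glyceraldehyde-3-phosphate dehydrogenase, had 2202, 2389.7 and 2024 CPM in *snf5Δ*, against 834, 582 and 1243 CPM in *snf2Δ*. Its groups did not overlap, at 1.32 ± 0.30 (adjusted p = 0.026). *ENO1*, an enolase, changed by 0.72 ± 0.18 (adjusted p = 0.036) and *CDC19*, pyruvate kinase, by 0.67 ± 0.17 (adjusted p = 0.0426). Both *TDH1* and *ENO1* have close paralogs, so reads can be split among copies. *GPM2*, a relative of phosphoglycerate mutase without that activity, had 87.3, 92.5 and 61.9 CPM in *snf5Δ*, against 26.5, 23.7 and 17.2 CPM in *snf2Δ*, at 1.84 ± 0.26 (adjusted p = 0.000756). All 11 pentose phosphate genes had a positive change, with a median of 0.66, and *GND1*, 6-phosphogluconate dehydrogenase, was called (0.68 ± 0.17, adjusted p = 0.0398). Among 51 nuclear genes for the TCA cycle and respiration, 5 were higher and 0 lower, with a median of 0.32. They were *KGD2* of the TCA cycle (0.56 ± 0.14, adjusted p = 0.0332), *QCR2* of complex III (0.69 ± 0.14, adjusted p = 0.0126) and the ATP synthase genes *ATP3* (0.61 ± 0.16, adjusted p = 0.0424), *ATP14* (0.63 ± 0.14, adjusted p = 0.0229) and *ATP20* (0.54 ± 0.14, adjusted p = 0.045). Of 7 mitochondrially encoded genes 0 were called, and their median was -0.25. *GPP2*, which makes glycerol, was higher, with 363, 417 and 377 CPM in *snf5Δ*, against 118, 104 and 158 CPM in *snf2Δ* (1.60 ± 0.22, adjusted p = 0.000653), and *POT1*, the thiolase of peroxisomal fatty acid oxidation, had 15.1, 21.1 and 17.2 CPM in *snf5Δ*, against 3.26, 0.949 and 3.28 CPM in *snf2Δ* (2.73 ± 0.41, adjusted p = 0.00151). By contrast in sign, 0 of 12 galactose and maltose genes were called and all 12 had a negative change (median -0.72), and 0 of 22 other glucose-repressed genes were called (median -0.45). Among the glucose-repressed genes *SUC2*, the sucrose invertase whose loss of expression gave *snf* mutants their name, had 28.3, 30.0 and 19.8 CPM in *snf5Δ*, against 69.4, 88.3 and 48.8 CPM in *snf2Δ*, at -1.36 ± 0.39 (adjusted p = 0.0785). On the scale of log2(TPM + 1), where the median of all genes was 0.26, the medians of the glycolysis, pentose phosphate and respiration lists were 0.63, 0.75 and 0.54, and that of the galactose and maltose list was -0.27. Calls of *GPM2*, *GPP2* and *POT1* held with any 1 library left out. *TDH1* was lost without *snf5Δ* 1, *snf5Δ* 2, *snf2Δ* 1 or *snf2Δ* 2 (adjusted p = 0.0673 to 0.142), *ENO1* without *snf5Δ* 1, *snf5Δ* 2, *snf2Δ* 1 or *snf2Δ* 2 (adjusted p = 0.105 to 0.19), *CDC19* without any of the 6 libraries (adjusted p = 0.0572 to 0.195) and *GND1* without any of the 6 libraries (adjusted p = 0.0645 to 0.15), and the number of respiration genes called lay between 0 (without *snf5Δ* 2, *snf2Δ* 1 or *snf2Δ* 2) and 7 (without *snf2Δ* 3), with 1 without *snf5Δ* 1. From the reduced fit came 1.47 for *TDH1* (adjusted p = 0.221), 1.77 for *GPM2* (adjusted p = 0.0674), 1.73 for *GPP2* (adjusted p = 0.0511), 2.47 for *POT1* (adjusted p = 0.0998) and 0.68 for *GND1* (adjusted p = 0.412), with 0 calls in the 3 lists of glycolysis, pentose phosphate and respiration.

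Ribonucleotide reductase makes the deoxynucleotides for DNA synthesis. *RNR2*, the small subunit of ribonucleotide reductase, had 571, 701 and 568 CPM in *snf5Δ*, against 251, 281 and 369.8 CPM in *snf2Δ*, at 1.03 ± 0.18 (adjusted p = 0.00472). Every *snf5Δ* library lay above every *snf2Δ* library. *RNR1*, *RNR3* and *RNR4*, the other subunits, had 0.28 ± 0.27, 0.77 ± 0.25 and 0.35 ± 0.16 and did not pass (adjusted p = 0.713, 0.123 and 0.325). *SHC1*, which encodes an activator of chitin synthesis in sporulation, had 19.9, 28.1 and 30.0 CPM in *snf5Δ*, against 8.15, 4.75 and 10.7 CPM in *snf2Δ*, at 1.68 ± 0.28 (adjusted p = 0.00317). *HOP2*, a meiotic pairing gene, had 26.7, 30.8 and 28.7 CPM in *snf5Δ*, against 10.7, 9.96 and 4.51 CPM in *snf2Δ*, at 1.74 ± 0.38 (adjusted p = 0.0201), or 2.51 with RSEM's expected counts. Calls of *RNR2* and *SHC1* held with any 1 library left out, and that of *HOP2* was lost without *snf5Δ* 1, *snf5Δ* 2, *snf2Δ* 1, *snf2Δ* 2 or *snf2Δ* 3 (adjusted p = 0.0518 to 0.094). Changes in the reduced fit were 1.35 for *RNR2* (adjusted p = 0.0615), 1.57 for *SHC1* (adjusted p = 0.113) and 1.43 for *HOP2* (adjusted p = 0.351).

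Haploid *a* cells express a receptor and a pheromone of their own and turn on fusion genes through Ste12. *STE2*, the receptor for alpha factor, had 169, 153 and 136 CPM in *snf5Δ*, against 200.2, 230.1 and 227 CPM in *snf2Δ*, at -0.52 ± 0.12 (adjusted p = 0.0281), and *MFA2*, an a-factor gene, 24.8, 25.4 and 19.8 CPM in *snf5Δ*, against 37.7, 42.2 and 36.1 CPM in *snf2Δ*, at -0.70 ± 0.12 (adjusted p = 0.00362). The groups did not overlap for either gene, and both were below wt (adjusted p of at most 1.2e-07), where *STE2* had 725, 677 and 625 CPM and *MFA2* 184, 155 and 159 CPM. Of 7 *a*-specific genes 2 were lower, 0 higher and 5 not called, with a median of -0.52. With the 6 compared libraries alone 0 were lower (median -0.52), with the reduced fit 0 (median -0.44), and on the log2(TPM + 1) scale 0 (median 0.00). Their summed level was 476 to 557 CPM in *snf5Δ*, 595 to 618 CPM in *snf2Δ* and 1572 to 2028 CPM in wt. Of 21 genes of *HO* and the pheromone pathway, *FUS1* and *PRM2* were lower and 19 were not called. *FUS1*, needed for cell fusion, had 8.09, 4.12 and 10.2 CPM in *snf5Δ*, against 19.1, 17.6 and 15.2 CPM in *snf2Δ*, at -1.32 ± 0.30 (adjusted p = 0.0213). Its upstream stretch with the pheromone response elements is printed above. *PRM2*, a pheromone-regulated membrane protein, had 1, 0 and 0 counts in *snf5Δ*, against 7, 5 and 4 in *snf2Δ* (adjusted p = 0.0339), too few for a fold. *STE12*, the activator at such elements, had 0.08 ± 0.18 (adjusted p = 0.903), and *HO*, the mating-type endonuclease, -0.43 ± 0.54 (adjusted p = 0.799). The alpha-specific *STE3* and *SAG1*, whose summed level was 23.0 to 26.2 CPM in *snf5Δ* and 27.9 to 30.4 CPM in *snf2Δ*, were not called. Of 12 genes of daughter cell separation 0 were called and 11 had a negative change (median -0.20, or 0.07 on the log2(TPM + 1) scale, where the median of all genes was 0.26). The *MFA2* call held with any 1 library left out. *STE2* was lost without *snf5Δ* 2, *snf5Δ* 3, *snf2Δ* 1, *snf2Δ* 2 or *snf2Δ* 3 (adjusted p = 0.052 to 0.126), *FUS1* without *snf5Δ* 1, *snf5Δ* 2, *snf2Δ* 1 or *snf2Δ* 2 (adjusted p = 0.0529 to 0.161) and *PRM2* without *snf5Δ* 1, *snf5Δ* 2, *snf5Δ* 3, *snf2Δ* 1 or *snf2Δ* 2 (adjusted p = 0.0633 to 0.203). With the reduced fit the changes were -0.30 for *STE2* (adjusted p = 0.62), -0.57 for *MFA2* (adjusted p = 0.175) and -1.64 for *FUS1* (adjusted p = 0.113).

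**Figure D2:**
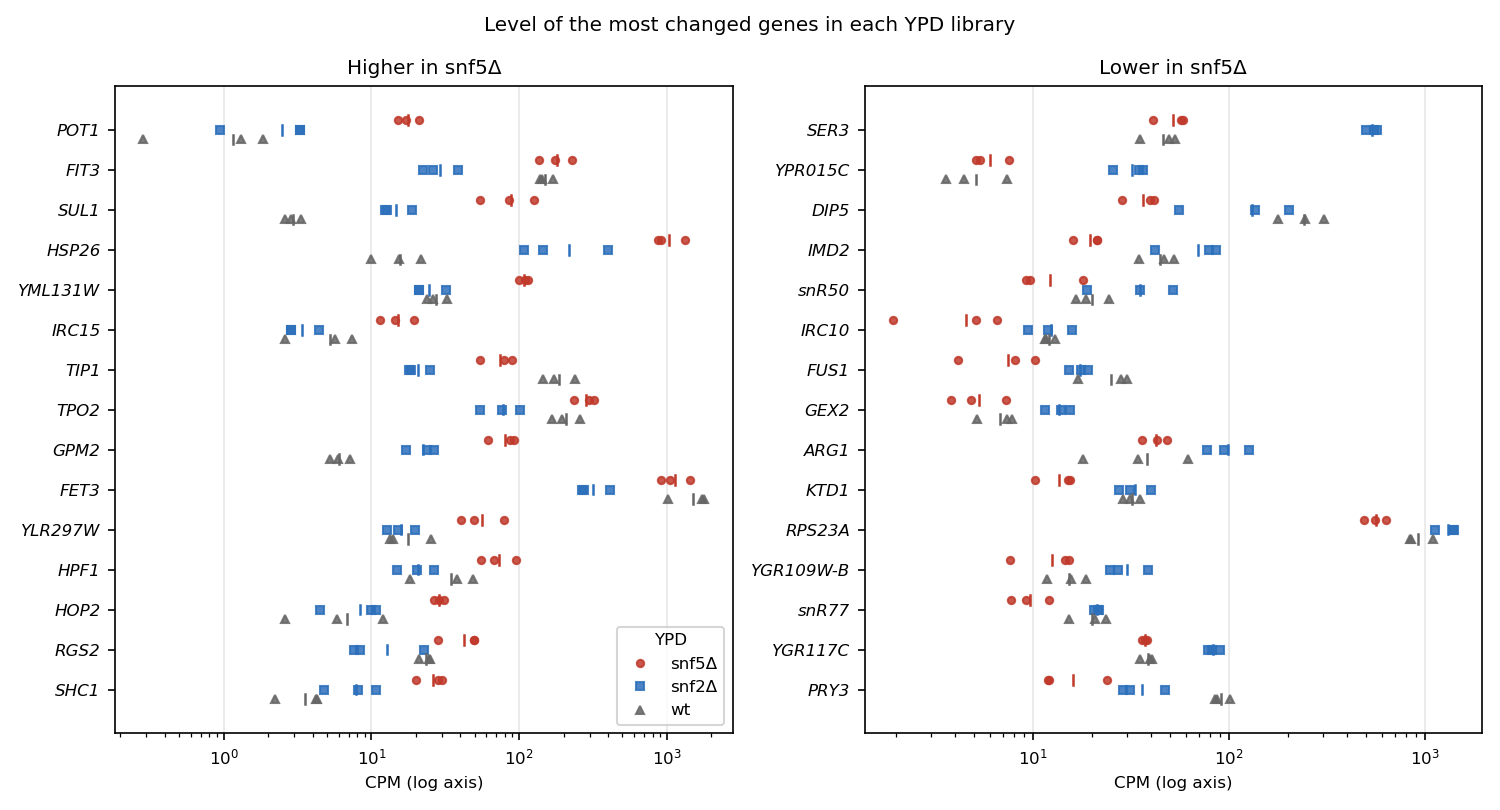
Level (CPM, log axis) in each YPD library of the 30 genes named by the rule for size of change, those higher in *snf5Δ* on the left and those lower on the right. Circles are *snf5Δ*, squares *snf2Δ* and triangles wt, with 3 libraries each and a short bar at the mean. The rule required that the *snf5Δ* and *snf2Δ* libraries do not overlap, so that holds in every row by choice. In several rows the *snf5Δ* libraries overlap those of wt, *SER3*, *YPR015C*, *YGR117C*, *FIT3*, *FET3* and *TPO2* among them.

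Mannoproteins coat the yeast cell wall, and permeases in the membrane below it take up nutrients. Of 29 cell wall mannoprotein genes 3 were higher, 0 lower and 26 not called, with a median of -0.01. *TIP1*, a cold- and stress-induced mannoprotein, had 90.0, 78.7 and 54.3 CPM in *snf5Δ*, against 18.6, 18 and 25 CPM in *snf2Δ*, at 1.88 ± 0.32 (adjusted p = 0.00362). Both mutants lay below wt, which had 146, 173 and 239.9 CPM. *SED1*, a structural mannoprotein, had 2313, 2413 and 2095 CPM in *snf5Δ*, against 894, 634 and 1246 CPM in *snf2Δ*, at 1.30 ± 0.25 (adjusted p = 0.0078), and *EXG1*, an exo-glucanase, 890.5, 803 and 950.2 CPM in *snf5Δ*, against 356, 278 and 506 CPM in *snf2Δ*, at 1.21 ± 0.18 (adjusted p = 0.00161). The groups did not overlap for either. *HPF1*, another cell wall mannoprotein, had 94.9, 67.8 and 54.9 CPM in *snf5Δ*, against 26.5, 20.4 and 14.8 CPM in *snf2Δ*, at 1.80 ± 0.31 (adjusted p = 0.00379), and *TPO2*, a polyamine exporter, 323, 298 and 236 CPM in *snf5Δ*, against 101, 54.6 and 76.3 CPM in *snf2Δ*, at 1.88 ± 0.37 (adjusted p = 0.00918). Of 16 amino acid permeases *DIP5* and *TAT2*, the tryptophan permease, were lower and 14 not called, with a median of -0.20, or 0.13 on the log2(TPM + 1) scale. *TAT2* had 75.2, 60.3 and 81.1 CPM in *snf5Δ*, against 112, 101 and 105 CPM in *snf2Δ*, at -0.56 ± 0.11 (adjusted p = 0.00843). Of 20 genes under nitrogen catabolite control *MEP1*, an ammonium permease in the stretch of chromosome VII described below, was lower (-0.87 ± 0.20, adjusted p = 0.0269). Of 20 vitamin B1 and B6 genes *THI7*, the thiamine transporter (1.05 ± 0.15, adjusted p = 0.000756), and *THI4*, of thiazole synthesis (1.55 ± 0.35, adjusted p = 0.0206), were higher, while *PHO3*, a phosphatase under thiamine control, was lower (-0.79 ± 0.20, adjusted p = 0.0399). *GIT1*, a glycerophosphoinositol permease, was the other lower gene of 23 phosphate genes (-1.37 ± 0.33, adjusted p = 0.0333). Calls of *TIP1*, *EXG1*, *HPF1* and *THI7* held with any 1 library left out. *SED1* was lost without *snf2Δ* 2 (adjusted p = 0.0506), *TPO2* without *snf2Δ* 2 (adjusted p = 0.0647), *TAT2* without *snf5Δ* 2 or *snf2Δ* 1 (adjusted p = 0.057 to 0.0638), *THI4* without *snf5Δ* 2, *snf2Δ* 1 or *snf2Δ* 2 (adjusted p = 0.0968 to 0.132), *MEP1* without *snf5Δ* 1, *snf5Δ* 2, *snf2Δ* 1 or *snf2Δ* 2 (adjusted p = 0.0775 to 0.153), *GIT1* without any of the 6 libraries (adjusted p = 0.0524 to 0.176) and *PHO3* without any of the 6 libraries (adjusted p = 0.0505 to 0.184). Reduced-fit changes were 2.19 for *TIP1* (adjusted p = 0.0899), 1.41 for *SED1* (adjusted p = 0.113), 1.26 for *EXG1* (adjusted p = 0.0263), 1.63 for *HPF1* (adjusted p = 0.166), 1.64 for *TPO2* (adjusted p = 0.292), -0.71 for *TAT2* (adjusted p = 0.0846) and 1.11 for *THI7* (adjusted p = 0.0409).

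Ergosterol is the main sterol of yeast membranes. Beside the counts that follow, 1.68% of all genes tested were higher and 1.30% lower. Of 24 genes of ergosterol synthesis *ERG25*, a methyl oxidase, was higher, with 959, 929.7 and 916 CPM in *snf5Δ*, against 458, 454 and 636 CPM in *snf2Δ*, at 0.86 ± 0.15 (adjusted p = 0.00495). *ECM22*, a sterol regulator (-0.78 ± 0.19, adjusted p = 0.0333), and *ERG2*, a sterol isomerase (-0.48 ± 0.11, adjusted p = 0.0283), were lower, and the list median was 0.02. Of 13 fatty acid synthesis genes *ELO1*, an elongase, was lower (-0.55 ± 0.12, adjusted p = 0.0176). Of 51 amino acid synthesis genes under Gcn4 *LYS1*, saccharopine dehydrogenase, was higher, with 55.8, 66.4 and 49.8 CPM in *snf5Δ*, against 22.8, 25.6 and 28.3 CPM in *snf2Δ*, at 1.18 ± 0.19 (adjusted p = 0.00257), *ARG1* was lower, and 49 were not called (median 0.15). Calls of *ERG25* and *LYS1* held with any 1 library left out, *ECM22* was lost without *snf5Δ* 1, *snf5Δ* 2, *snf5Δ* 3, *snf2Δ* 1 or *snf2Δ* 2 (adjusted p = 0.073 to 0.148), *ERG2* without *snf5Δ* 1, *snf5Δ* 2, *snf5Δ* 3, *snf2Δ* 1 or *snf2Δ* 2 (adjusted p = 0.0656 to 0.15) and *ELO1* without *snf5Δ* 1, *snf5Δ* 2, *snf5Δ* 3, *snf2Δ* 1 or *snf2Δ* 2 (adjusted p = 0.0554 to 0.0748). The reduced fit returned 1.05 for *ERG25*, 1.43 for *LYS1*, -0.63 for *ECM22*, -0.39 for *ERG2* and -0.55 for *ELO1*.

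Other genes named for the size of their increase belong to none of these groups. *YML131W*, an open reading frame similar to oxidoreductases, had 100, 109 and 114 CPM in *snf5Δ*, against 21.0, 31.8 and 20.9 CPM in *snf2Δ*, and 26.1, 23.9 and 32.5 CPM in wt. Every *snf5Δ* library lay well above every *snf2Δ* and wt library, at 2.15 ± 0.16 (adjusted p = 4.75e-07). *IRC15*, a microtubule-associated protein, had 19.4, 14.5 and 11.5 CPM in *snf5Δ*, against 4.42, 2.85 and 2.87 CPM in *snf2Δ*, at 2.12 ± 0.41 (adjusted p = 0.00843). It overlaps *CTF19* by 27 bases. *YLR297W* had 49.6, 79.5 and 40.2 CPM in *snf5Δ*, against 19.8, 15.2 and 12.7 CPM in *snf2Δ*, at 1.82 ± 0.30 (adjusted p = 0.00257). *RGS2*, a regulator of the G protein Gpa2 in glucose sensing, had 28.3, 49.4 and 49.2 CPM in *snf5Δ*, against 8.38, 7.59 and 22.6 CPM in *snf2Δ*, at 1.73 ± 0.37 (adjusted p = 0.0148), with *snf2Δ* replicate 3 nearest to *snf5Δ*. The *RGS2* call was lost without *snf5Δ* 2, *snf2Δ* 1 or *snf2Δ* 2 (adjusted p = 0.0897 to 0.116), and the others held with any 1 library left out. The reduced fit gave 2.33 for *YML131W* (adjusted p = 5.94e-05), 1.94 for *IRC15* (adjusted p = 0.213), 1.72 for *YLR297W* (adjusted p = 0.113) and 2.22 for *RGS2* (adjusted p = 0.0674).

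Of 137 cytosolic ribosomal protein genes 3 were lower and 0 higher, with a median of 0.01, and of 62 ribosome biogenesis genes 0 were called (median 0.16). Among all genes tested 1.30% were lower and 1.68% higher. *RPS23A* had 488, 552 and 634 CPM in *snf5Δ*, against 1118, 1378 and 1399.5 CPM in *snf2Δ*, at -1.22 ± 0.22 (adjusted p = 0.00551), in a stretch of chromosome VII described below. *RPL41A* and *RPL41B*, which encode one very short protein, changed by -1.10 ± 0.23 and -0.76 ± 0.19 (adjusted p = 0.013 and 0.0388). They share sequence, and RSEM listed both at 0 in all 6 libraries, so no second quantification is given. Apart from the deleted genes, none of the other 10 Swi-Snf subunit genes was called (changes from -0.31 to 0.24). Of 14 genes of RSC, the related remodeler, *RSC3* was lower, with 69.6, 66.4 and 64.5 CPM in *snf5Δ*, against 91.5, 95.9 and 80.9 CPM in *snf2Δ*, at -0.42 ± 0.10 (adjusted p = 0.0391), and of 11 histone genes 0 were called. *RPS23A* held with any 1 library left out and *RSC3* was lost without *snf5Δ* 1, *snf5Δ* 2, *snf5Δ* 3, *snf2Δ* 1 or *snf2Δ* 2 (adjusted p = 0.0882 to 0.181), *RPL41A* without *snf5Δ* 2, *snf2Δ* 1 or *snf2Δ* 2 (adjusted p = 0.0647 to 0.0825) and *RPL41B* without *snf5Δ* 1, *snf5Δ* 2, *snf5Δ* 3, *snf2Δ* 1 or *snf2Δ* 2 (adjusted p = 0.056 to 0.196). Among small RNAs, 4 of 77 snR genes (5.19%) and 3 of 44 tRNA genes (6.82%) were lower, against 1.30% of all genes tested, and 0 were higher. A negative change was seen in 75 of the snR genes. All 44 tRNA genes together summed to only 89.6 to 113.8 CPM in *snf5Δ*, against 144.5 to 195.5 CPM in *snf2Δ*. Of the tRNA calls, tK(UUU)P and tH(GUG)G2 were lost without *snf5Δ* 1, *snf5Δ* 2, *snf2Δ* 1 or *snf2Δ* 2 (adjusted p = 0.0677 to 0.21 and 0.0532 to 0.143). The call of tR(UCU)K was lost without any of the 6 libraries (adjusted p = 0.0716 to 0.213). The medians of the 2 classes were -0.59 and -0.72, or -0.39 and 0.03 in YPD + Cys. Among them snR50, a guide RNA of ribosomal RNA methylation, had 9.17, 9.69 and 17.9 CPM in *snf5Δ*, against 34.9, 51.7 and 18.9 CPM in *snf2Δ*, at -1.61 ± 0.31 (adjusted p = 0.00781), and snR77 9.17, 7.75 and 12.1 CPM in *snf5Δ*, against 20.5, 21.4 and 21.8 CPM in *snf2Δ*, at -1.19 ± 0.27 (adjusted p = 0.0206). Calls of snR50 were lost without *snf5Δ* 1 or *snf5Δ* 2 (adjusted p = 0.0572 to 0.0674) and of snR77 without *snf5Δ* 1, *snf5Δ* 2, *snf2Δ* 1 or *snf2Δ* 2 (adjusted p = 0.0677 to 0.157), and the reduced fit gave -1.09 for *RPS23A* (adjusted p = 0.205), -1.87 for snR50 (adjusted p = 0.00281), -1.27 for snR77 (adjusted p = 0.203) and -0.42 for *RSC3* (adjusted p = 0.347). The summed level of snR genes was 70603 to 94432 CPM in *snf5Δ*, 95375 to 145898 CPM in *snf2Δ* and 134505 to 188312 CPM in wt, and its part in other results was not tested.

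**Figure D3:**
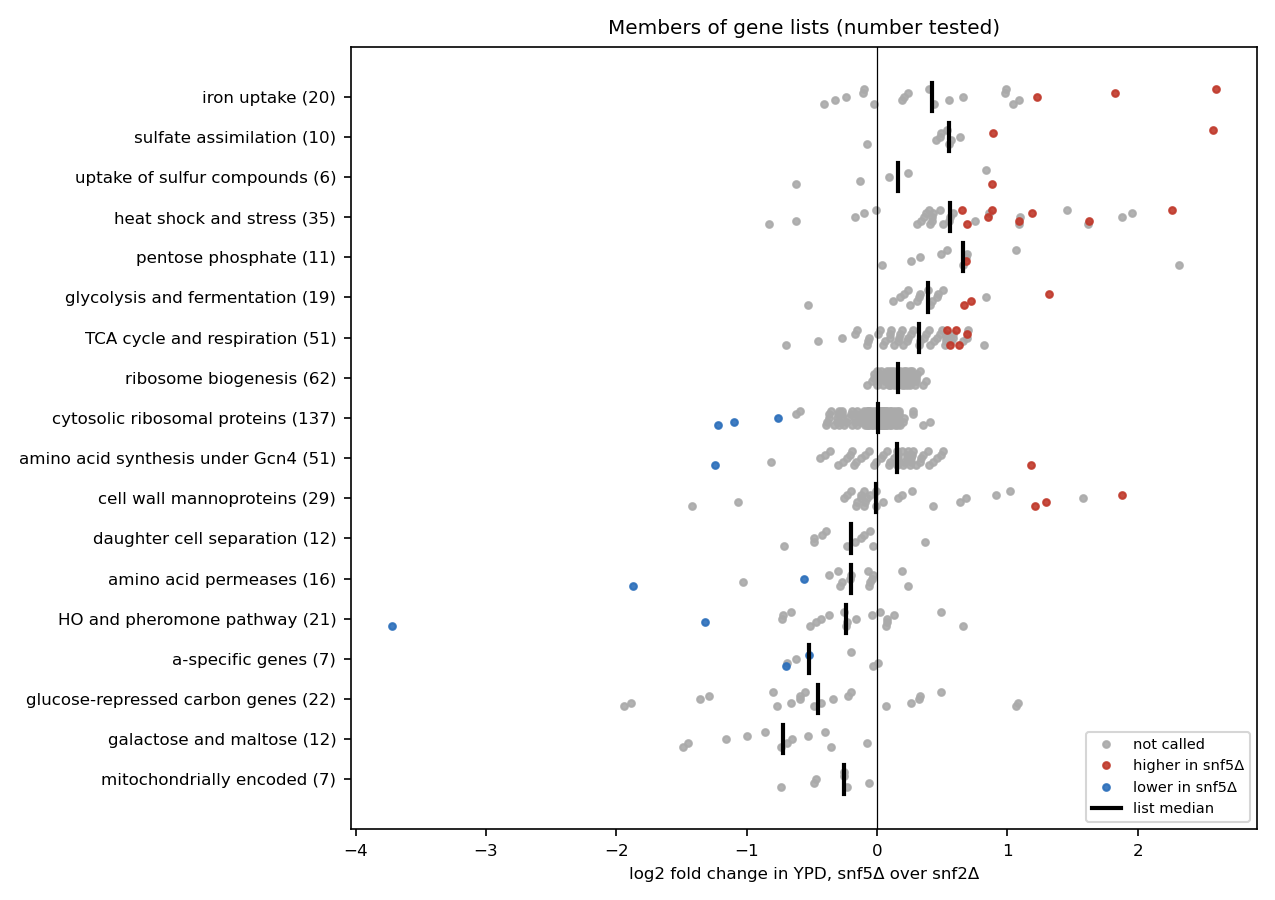
Log2 fold change in YPD (*snf5Δ* over *snf2Δ*) of each tested member of 18 gene lists, with the number of members in parentheses and the list median as a black bar. Grey members were not called, red were higher and blue lower in *snf5Δ*; called members of the heat shock, iron and glycolysis lists are all higher, and those of the mating and permease lists all lower.

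Set against wt, genes with the largest differences lay on different sides of the wt level. Both sets of changes share the wt libraries and are given side by side. *TIP1* stood at -1.30 ± 0.29 in *snf5Δ* and -3.18 ± 0.32 in *snf2Δ*, both below wt. *HSP26* (6.03 ± 0.69 in *snf5Δ* and 3.78 ± 0.64 in *snf2Δ*), *SUL1* (4.88 ± 0.52 and 2.30 ± 0.58) and *GPM2* (3.73 ± 0.30 and 1.89 ± 0.32) stood above wt in both. *YML131W* was above wt in *snf5Δ*, at 1.97 ± 0.16 (adjusted p = 1.88e-07), and at -0.18 ± 0.17 in *snf2Δ* (adjusted p = 0.51). *PRY3* and *DIP5* had negative changes in both, at -2.48 ± 0.27 and -2.74 ± 0.37 in *snf5Δ* and -1.32 ± 0.25 and -0.87 ± 0.34 in *snf2Δ*, and of these the *DIP5* change in *snf2Δ* did not pass (adjusted p = 0.0801).

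**Figure D4:**
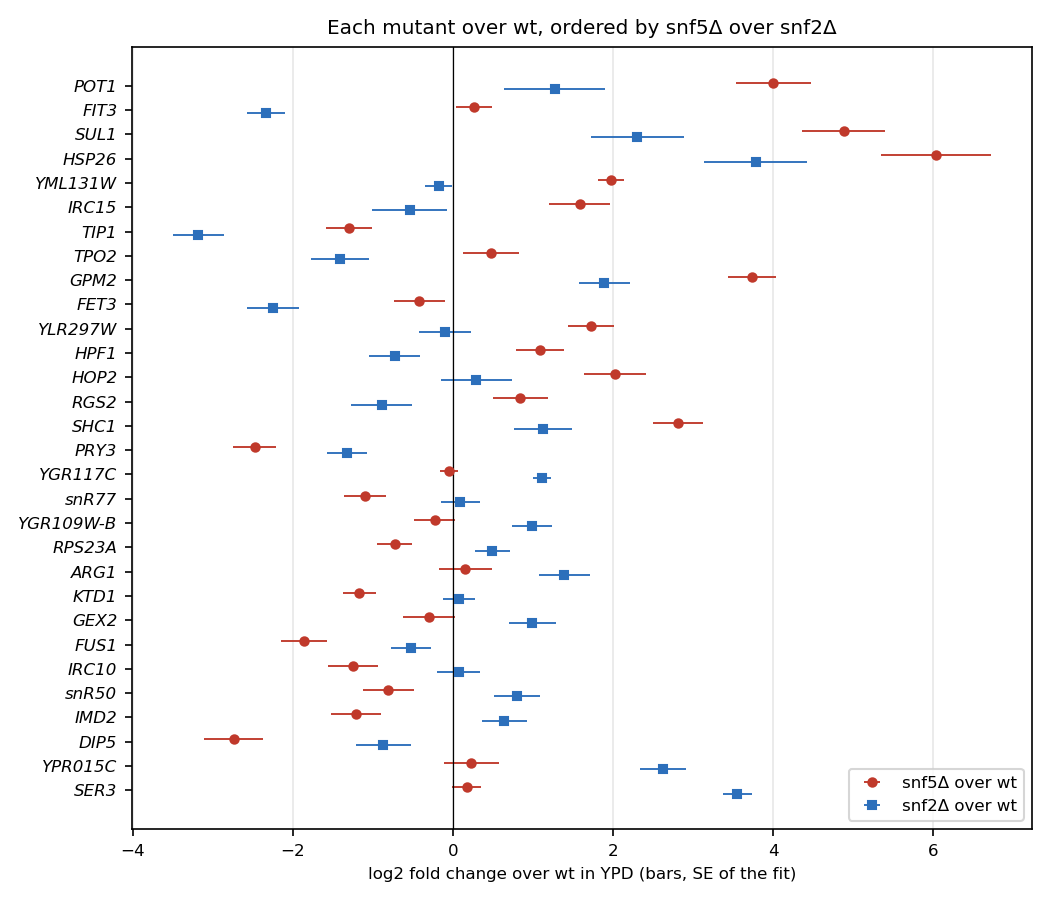
Log2 fold change over wt in YPD of the 30 genes named for size, with the SE of the fit as bars, ordered by the change of *snf5Δ* over *snf2Δ*. Circles are *snf5Δ* and squares *snf2Δ*; *SER3* and *YPR015C* lie near 0 in *snf5Δ* and above it in *snf2Δ*, whereas *FIT3* lies near 0 in *snf5Δ* and below it in *snf2Δ*.

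In YPD + Cys the same mutants gave a similar number of calls from other libraries, 146 genes (2.54%), 79 higher (1.37%) and 67 lower (1.16%) in *snf5Δ*. Of the 172 genes called in YPD, 98 were called there in the same direction (57.0% of the YPD calls and 67.1% of the YPD + Cys calls) and 0 in the other, and 169 had the same sign. Same-numbered libraries of a strain deviated together across the media, so the media are not independent of each other. *SER3* had 43.6, 65.0 and 48.5 CPM in *snf5Δ* and 504, 511 and 514 CPM in *snf2Δ* with cysteine, a change of -3.28 ± 0.18 (adjusted p = 4.02e-09), close to that in YPD. *FIT3* changed by 2.12 ± 0.24 (adjusted p = 5.96e-05) and *YML131W* by 2.04 ± 0.16 (adjusted p = 8.12e-07). *SUL1* had 4.78, 7.36 and 5.21 CPM in *snf5Δ* and 8.61, 4.25 and 3.83 CPM in *snf2Δ*, a change of 0.08 ± 0.52 (adjusted p = 0.959). *MET16* changed by -0.39 ± 0.25 (adjusted p = 0.558) and *YCT1* by -0.23 ± 0.16 (adjusted p = 0.59), and the median of the sulfate assimilation list was -0.35. The difference between media itself, an interaction term, was called for 0 genes by edgeR and 0 by DESeq2, with 64 genes at an unadjusted p under 0.05 by edgeR and a lowest adjusted p of 0.653. For *SUL1* that term was -2.49 ± 0.67 (YPD + Cys minus YPD, adjusted p = 1). That fit does not pair the libraries. With same-numbered libraries of each strain paired across the media (a fit added with the data in view), edgeR called 10 genes (0.174%), each with a lower *snf5Δ* over *snf2Δ* change in YPD + Cys than in YPD. They were *SUL1* (-2.51 ± 0.44, adjusted p = 0.0176), *MET3*, for ATP sulfurylase (-1.47 ± 0.22, adjusted p = 0.0138), *YCT1* (-1.09 ± 0.19, adjusted p = 0.0176), the S-methylmethionine permease gene *MMP1* (-1.24 ± 0.24, adjusted p = 0.0331), *MHT1*, *MET22*, *HOM6*, *ZWF1*, *TDH1* and *YHR112C*. With 1 such pair left out the paired fit called 0 to 19 genes, at 0 without pair 1 or 3 of *snf5Δ* or pair 1 or 2 of *snf2Δ*, 3 without pair 2 of *snf5Δ* and 19 without pair 3 of *snf2Δ*, and *SUL1* then had adjusted p from 0.00478 to 0.511. The calls with cysteine numbered 78 to 186 with 1 library left out, at 78 without *snf5Δ* 2, 88 without *snf5Δ* 1, 81 without *snf2Δ* 2 and 89 without *snf2Δ* 1 of that medium.

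**Figure D5:**
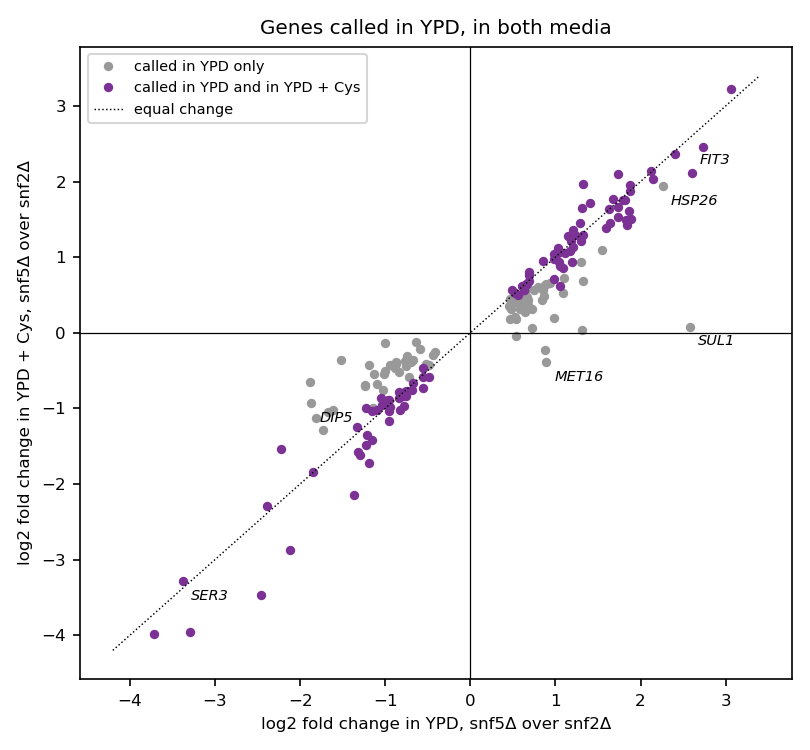
Log2 fold change (*snf5Δ* over *snf2Δ*) in YPD + Cys (vertical axis) against that in YPD (horizontal axis) for genes called in YPD, without *SNF2* and *SNF5*. Purple points were also called in YPD + Cys (98 genes with *SNF2* and *SNF5* counted) and the dotted line marks equal change; *SER3* lies near that line, while *SUL1* lies near 0 on the vertical axis.

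By position, the median log2 fold change of each nuclear chromosome lay between -0.07 and 0.03. Of the 2 nearest annotated genes on each side of *SNF5* and *SNF2*, *APM3*, next to *SNF5* and encoding an adaptor subunit, was higher in *snf5Δ*, with 55.5, 64.7 and 67.1 CPM in *snf5Δ*, against 37.3, 36.5 and 41.9 CPM in *snf2Δ*, at 0.69 ± 0.13 (adjusted p = 0.00581), and the other 7 were not called (changes from -0.54 to 0.44). *SUL1* (chrII:789235-791814) lies 6851 bases beyond the end of *SNF5* (chrII:779667-782384) with 4 annotated genes between them. A stretch of chromosome VII around *SPT6* (chrVII:707610-735143), chosen after its values were seen, held 13 tested genes, 9 of them lower in *snf5Δ* and 0 higher. Their median was -0.95, or 0.00 over wt in *snf5Δ* and 1.11 in *snf2Δ*. Of the 50 tested genes that flank the stretch, 3 were higher (*TPO2*, *THI4* and *ECL1*) and 0 lower. The edges were chosen from these values, so the contrast of the stretch with the genes beside it is not independent of that choice. *SPT6*, a histone chaperone, had 260.2, 288 and 268 CPM in *snf5Δ*, against 504, 526 and 550.0 CPM in *snf2Δ* (-0.95 ± 0.10, adjusted p = 3.94e-05), *YGR117C* 37.2, 38.0 and 35.8 CPM in *snf5Δ*, against 89.6, 77.8 and 81.3 CPM in *snf2Δ* (-1.16 ± 0.11, adjusted p = 6.4e-06), and the Ty3 element *YGR109W-B*, which has copies elsewhere and overlaps *YGR109W-A*, 14.6, 15.3 and 7.66 CPM in *snf5Δ*, against 38.4, 27.0 and 24.6 CPM in *snf2Δ* (-1.21 ± 0.25, adjusted p = 0.0134). Why these genes lie together was not tested. The neighbours *FET3* and *AAC1* were also called in 1 direction, and reads of adjacent genes cannot be assigned by strand here. Calls of *APM3*, *SPT6* and *YGR117C* held with any 1 library left out and that of *YGR109W-B* was lost without *snf2Δ* 1 (adjusted p = 0.116), and the reduced fit gave 0.70 for *APM3* (adjusted p = 0.167), -0.87 for *SPT6* (adjusted p = 0.0363), -1.24 for *YGR117C* (adjusted p = 0.00154) and -1.35 for *YGR109W-B* (adjusted p = 0.0707).

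Several other lists held 0 called genes: 10 hexose transporters (median 0.07), 18 trehalose and glycogen genes (0.03), 13 multidrug transporters (0.12), 19 inositol and phospholipid genes (-0.02) and 4 flocculin genes (-0.37).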

How the data were processed

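RNA was sequenced in 18 libraries, and the 6 of *snf5Δ* and *snf2Δ* in YPD were compared. Per the study's methods and the submitters' notes, the authors used bcl2fastq 2.18 for demultiplexing and STAR 2.7.3a for alignment to sacCer3 with Ensembl annotation, and they deposited counts per gene without normalisation. The authors also deposited, from RSEM 1.3.0, TPM values, scaled to one total per library and by gene length, and expected counts, which are estimated, not normalized, and were rounded here. The 4 lines of the count table that name no gene (14.4% to 78.2% of a library) entered neither library sizes nor tests. Of 7127 identifiers, 6047 matched the RefSeq R64 annotation, the source of names, coordinates and sequences. Counting settings for strand are not given in the sources used here.

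Genes were kept by filterByExpr, libraries scaled by TMM, and all 18 libraries in 6 groups fitted with edgeR 4.0.16 in R 4.3.3 (quasi-likelihood test, common dispersion 0.0292, 12 residual degrees of freedom, Benjamini-Hochberg adjustment over 5757 genes). Replicate numbers come from the labels. Deviations of same-numbered libraries of a mutant correlated at 0.224 to 0.787 between the media (across genes, which are not independent replicates), so they were taken to pair the media within a strain in an alternative fit. With 3 libraries a group, a log2 fold change of a called gene was at least 0.42. The genes and lists described were chosen with earlier results of these data known. Named for size were up to 15 called genes per direction with the largest change, a mean of at least 10 CPM in a mutant and no overlap between the mutants' libraries, without *SNF2*, *SNF5*, *HIS3*, *LEU2*, *URA3* and *MET17*. List members were named where a list is described, with each called member of lists of up to 20 genes. Alternatives tried were library totals and RLE size factors for scaling, other low-count filters, nuclear protein-coding genes, DESeq2 1.42.0, fewer libraries in the fit, RSEM's expected counts, limma 3.58.1 on log2 TPM with pseudocounts of 1 and 0.1, a replicate block, and leaving out libraries. One called gene, and the list that rests on it, is not reported here.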

Additional observations from a re-analysis of the deposited data

How the results depend on the processing

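Of the 172 genes called, 52 kept their call in all 6 fits that left out 1 library and 12 under every alternative run for them. Across genes and alternatives, 2231 values kept their call, 1111 lost it without reversing, and 2 reversed. Both reversals were *MFA2* with limma, at 1.98 for log2(TPM + 1) and 3.08 for log2(TPM + 0.1), where RSEM listed it at 0 TPM in 5 of 6 libraries and at 59.8 TPM in *snf5Δ* replicate 1. The 172 calls became 104 with the 9 YPD libraries alone, 109 with the 6 compared libraries alone, 46 and 39 with limma on log2(TPM + 1) and log2(TPM + 0.1), and 21 in the reduced fit. The 97 higher genes became 40 and 33 with limma and 9 in the reduced fit. The 75 lower genes became 49 with library totals, 39 with the 9 YPD libraries, 39 with the 6 compared libraries, 49 with RSEM's expected counts, 6 and 6 with limma, and 12 in the reduced fit. The 17 changes over 4-fold became 4 with at least 10 counts in every library and 11 in the reduced fit. With limma on log2(TPM + 1), 87.0% of calls were higher. With 1 library left out, calls ran from 64 to 213, higher genes from 40 to 114, lower genes from 22 to 99, changes over 4-fold from 12 to 29, and calls with cysteine from 78 to 186. DESeq2 called 234. RLE size factors (177), no filter (165) and nuclear protein-coding genes (170) stayed within 1.5 times. Apart from what a filter or a smaller fit removes by construction, the cause of these shifts was not tested.

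With replicate number as a block over all 18 libraries, 305 genes were called (165 higher, 140 lower), and in the 6 compared libraries 696 (354 higher, 342 lower), while calls with cysteine became 266. Deviations of same-numbered *snf5Δ* and *snf2Δ* libraries in YPD correlated at 0.435, 0.082 and 0.551 across genes, and *snf5Δ* replicate 2 correlated best with *snf2Δ* replicate 1 (0.402), so, with 1 pair under 0.1, the numbers were not taken to pair the mutants and these counts are a hint from the data. The difference between media was called for 0 genes under every other setting run for it, and for 10 with same-numbered libraries of a strain paired across the media (a fit added with the data in view), or 0 to 19 with 1 such pair left out. Depth limits low genes, above all in *snf5Δ* replicate 3 with 1329986 counts.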
